A study of Mus musculus with 6 samples.

Results

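The genes described here are 10 assembly factors of respiratory chain complex I, the NADH dehydrogenase of the inner mitochondrial membrane: Ndufaf1, Ndufaf2, Ndufaf3, Ndufaf4, Ecsit, Acad9, Foxred1, Nubpl, Tmem126b and Timmdc1. They were taken by exact gene symbol from the array's annotation, which gave 13 probe sets, and they are 10 of 18193 genes named there. Their RNA was measured in microdissected olfactory epithelium of 3 Harlequin males (Hq/Y, of the strain named B6CBACAw-J/A-Pdcd8-Hq/J) and 3 wild-type males (+/Y, of the strain named B6CBACa) that the titles call littermates. All 6 mice were 6 months old and had been bought at 13 weeks of age, and each mouse was 1 biological replicate on 1 Affymetrix array. Harlequin is an X-linked hypomorphic allele of Aifm1 (formerly Pdcd8), which encodes apoptosis-inducing factor, so the lesion is present in every cell of the tissue and not in 1 cell type. The strain names of the mutants and the controls differ, and strain background and genotype cannot be told apart. The series asked how gene expression relates to oxidative neurodegeneration in this mutant.

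Complex I is built from subunits encoded in the nucleus and in the mitochondrial genome, which come together as separate modules. Assembly factors are not part of the finished enzyme. They hold the modules, insert iron-sulphur clusters and flavins or anchor an intermediate in the membrane, and loss of many of them causes complex I deficiency in humans. Most of the roles given below were worked out in human cells. Apoptosis-inducing factor is a flavoprotein of the intermembrane space needed for normal amounts of complex I, and it works with the import receptor Chchd4. Olfactory epithelium is rich in sensory neurons that are replaced throughout life.

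RefSeq (GRCm38.p6) gave a promoter window, 250 bases before to 50 after the transcription start, for 9 of the 10 genes. These windows lay on chromosomes 2, 4, 7, 9, 12, 13 and 16, with Ecsit, Foxred1 and Ndufaf3 all on chromosome 9. Their GC content had a median of 63.7%, from 45.3% in Nubpl to 66.7% in Foxred1, beside a median of 60.3% for the promoters of the genes tested here. The letters TATAAA were in 0 of 9 windows, against 7.84% of the promoters of tested genes and 13.6% of all promoters. CCAAT was in 7 of 9, against 37% and 37.4%. The ETS core CCGGAAG was in Ndufaf1, Ecsit and Timmdc1 (15.8% and 8.86%), and the NRF1 core GCGCATGC was in Ndufaf4 (4.8% and 2.71%). AAGATGGC, a core bound by YY1, was in Tmem126b (4.01% and 2.75%), TGACGTCA was in Nubpl (2.91% and 1.79%), and the E-box CACGTG was in Nubpl and Tmem126b (9.52% and 7.15%). These letters overlap each other in Nubpl. Both strands were searched for these 7 motifs, and a match is only a description of the letters.

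Promoters are printed 5′ to 3′ on the gene's strand for the 1 gene whose genotypes did not overlap in signal (Ndufaf3), for the gene with the greatest difference in size (Tmem126b) and for the 2 windows with the most NRF1 and ETS matches. Capitals mark the CCAAT, ETS, NRF1 and YY1 letters given above, on either strand. In Ndufaf4 2 of the 3 matches overlap as a palindrome, and in Timmdc1 2 of the 4 do.
Ndufaf3 (chr9:108567387-108567686, minus strand): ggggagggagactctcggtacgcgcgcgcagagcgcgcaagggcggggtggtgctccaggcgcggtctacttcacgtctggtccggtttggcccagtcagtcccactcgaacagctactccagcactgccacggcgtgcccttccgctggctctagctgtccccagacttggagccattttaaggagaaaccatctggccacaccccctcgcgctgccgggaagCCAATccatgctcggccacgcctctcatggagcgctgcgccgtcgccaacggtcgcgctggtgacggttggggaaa
Tmem126b (chr7:90475946-90476245, minus strand): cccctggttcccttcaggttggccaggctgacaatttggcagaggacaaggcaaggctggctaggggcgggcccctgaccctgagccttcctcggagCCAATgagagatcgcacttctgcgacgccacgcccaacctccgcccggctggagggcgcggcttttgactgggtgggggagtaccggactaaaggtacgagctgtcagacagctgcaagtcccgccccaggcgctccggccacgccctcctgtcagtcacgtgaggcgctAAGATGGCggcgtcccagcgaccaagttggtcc
Ndufaf4 (chr4:24897833-24898132, plus strand): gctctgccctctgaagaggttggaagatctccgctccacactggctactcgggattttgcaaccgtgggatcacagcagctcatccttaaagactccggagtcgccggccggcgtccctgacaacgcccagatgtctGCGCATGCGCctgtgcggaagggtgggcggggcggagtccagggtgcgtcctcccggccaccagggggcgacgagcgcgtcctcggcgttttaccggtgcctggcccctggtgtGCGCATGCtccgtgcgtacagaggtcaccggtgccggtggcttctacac
Timmdc1 (chr16:38522614-38522913, minus strand): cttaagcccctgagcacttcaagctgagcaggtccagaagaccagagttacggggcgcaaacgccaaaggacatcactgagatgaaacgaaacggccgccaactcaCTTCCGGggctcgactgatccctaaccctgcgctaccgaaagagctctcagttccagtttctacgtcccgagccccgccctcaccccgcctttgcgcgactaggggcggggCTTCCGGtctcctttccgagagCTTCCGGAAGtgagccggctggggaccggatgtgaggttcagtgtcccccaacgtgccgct

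None of the 10 assembly factors passed the test between the genotypes, and the intervals below give the sizes of difference these arrays leave possible. Harlequin was compared with control in limma over all 13219 genes whose mean signal passed a filter, on log2(value + 16), with Benjamini-Hochberg adjustment. At an adjusted p under 0.05, 0 of 10 assembly factors were called, against 0.0303% of all genes tested. At an unadjusted p under 0.05 the count was 0 of 10 as well, against 4.58% of all genes. All 10 had passed the filter (a signal of 61.1), and the lowest value of any of them at its brightest probe set was 275.9, so no member was left out for low signal. Of the 10 log2 differences, 3 were above and 7 below 0. Their median was -0.03, and the median over all genes tested was 5.2e-05. The lowest adjusted p among them was 0.981. In tissue RNA, fewer cells of a type and less RNA per cell cannot be told apart.

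**Figure D1:**
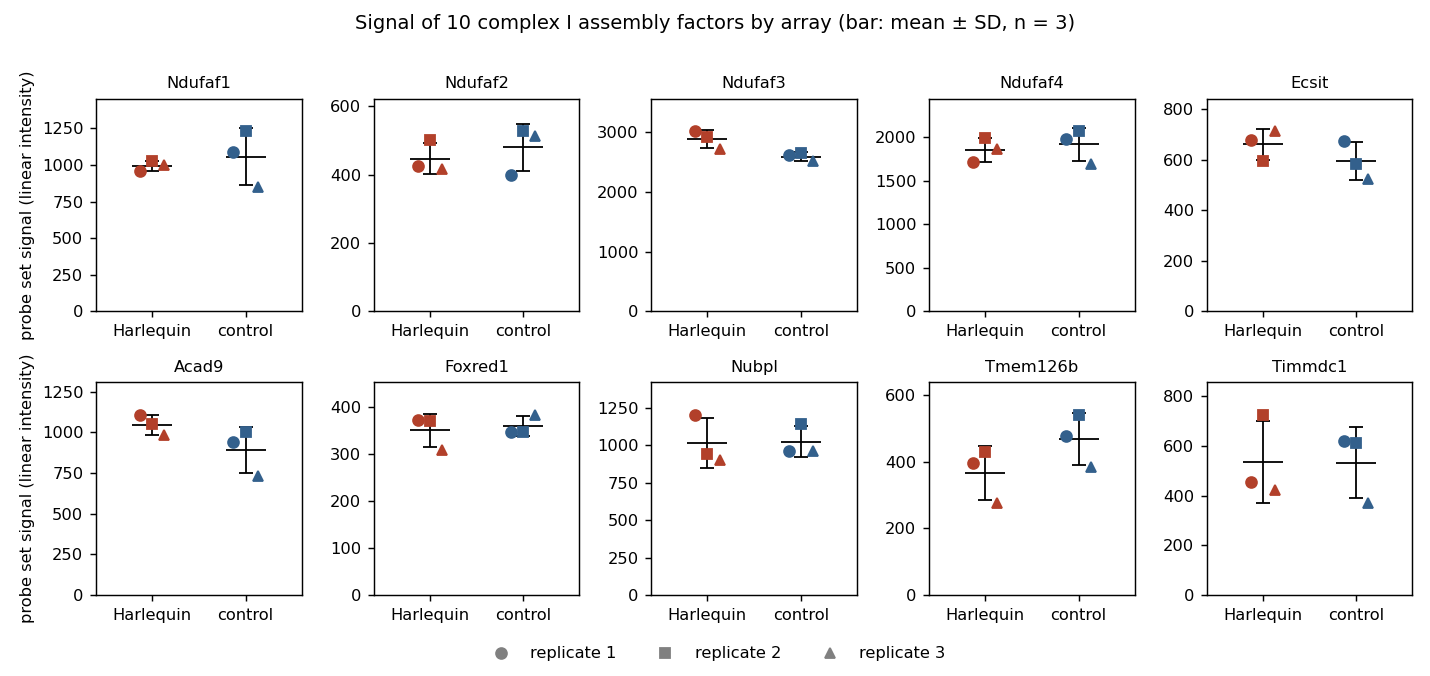
Signal (linear intensity) of the brightest probe set of each assembly factor on every array, Harlequin left and control right, with mean ± SD (n = 3) as bars and a symbol for each replicate. Only Ndufaf3 has all 3 Harlequin values above all 3 control values, and Timmdc1 spreads widely within both genotypes.

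Aifm1, the mutated gene, fell on the same arrays. It gave 335.4, 221.1 and 211.2 in Harlequin, against 1239.9, 1255.6 and 1128.2 in controls. The log2 fold change was -2.20 (SE 0.18, limma adjusted p = 0.0158), with a 95% interval of -2.60 to -1.79. The call did not hold without the intensity trend of the variance (adjusted p = 0.0887) or with control replicate 1 (0.097), 2 (0.0616) or 3 (0.068) taken away. The intervals of the 10 assembly factors reached no lower than -0.80 and no higher than 0.58, which as folds is 0.575 to 1.498. None of them reached the interval of Aifm1. Chchd4, the import receptor that partners with apoptosis-inducing factor, gave 1838.5, 1694.6 and 1706.4 in Harlequin and 1775.8, 1688.3 and 1875.6 in controls. Its log2 difference was -0.03 (95% interval -0.24 to 0.18, adjusted p = 0.995).

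**Figure D2:**
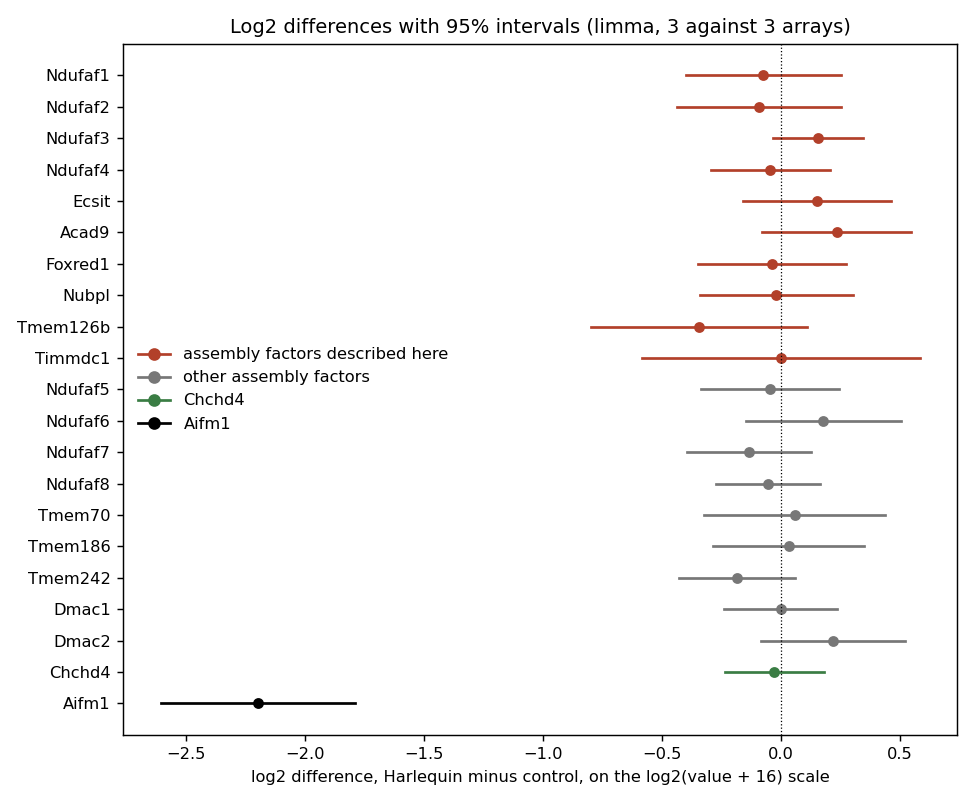
Log2 differences, Harlequin minus control, with 95% intervals from limma for the 10 assembly factors, 9 other assembly factors, Chchd4 and Aifm1. All intervals but that of Aifm1 cross 0, and the widest among the 10 is that of Timmdc1, -0.59 to 0.58.

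Ndufaf1, Ecsit, Acad9 and Tmem126b belong to the mitochondrial complex I intermediate assembly complex, which builds the part of the membrane arm around the subunit ND2. Their differences pointed both ways, with 2 above and 2 below 0 and a median of 0.04. Tmem126b, the membrane protein of this complex, gave 397.1, 430.4 and 275.9 in Harlequin and 477.8, 541.3 and 385.0 in controls. Harlequin replicate 3 was the lowest of the 6 arrays, and the genotypes overlapped, since control replicate 3 lay below Harlequin replicates 1 and 2. The log2 difference of -0.35 (SE 0.20, 95% interval -0.80 to 0.11, adjusted p = 0.981) was the greatest in size among the 10. By an exact permutation test, two-sided, p was 0.3, where 0.1 is the smallest value that 3 against 3 arrays allow. Without Harlequin replicate 3 the log2 difference was -0.16.

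Acad9, an acyl-CoA dehydrogenase relative with a second role in complex I assembly, gave 1108.5, 1050.8 and 983.7 in Harlequin and 942.8, 1005.9 and 733.9 in controls at its brightest probe set. Only control replicate 2 reached into the Harlequin range. The log2 difference was 0.24 (SE 0.14, 95% interval -0.08 to 0.55, adjusted p = 0.981; exact p = 0.2), and 0.10 without control replicate 3. Ecsit, an adaptor that was first described in innate immune signalling, gave 678.9, 594.0 and 713.5 in Harlequin and 676.2, 583.5 and 525.2 in controls. Its genotypes overlapped, at a log2 difference of 0.15 (SE 0.14, adjusted p = 0.982), which was 0.07 without control replicate 3 and 0.25 without control replicate 1. Ndufaf1, the core chaperone of the complex, gave 955.4, 1023.8 and 1001.0 in Harlequin and 1090.5, 1230.5 and 850.9 in controls. The controls lay on both sides of all 3 Harlequin values, and the log2 difference was -0.07 (95% interval -0.40 to 0.25).

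Ndufaf3 and Ndufaf4 bind each other and act on the early peripheral arm, and Timmdc1 anchors an early intermediate with the subunit ND1 in the membrane. Ndufaf3 gave 3015.7, 2926.0 and 2725.0 in Harlequin and 2610.3, 2646.6 and 2511.9 in controls. All 3 mutants were above all 3 controls, which held for 1 of 10 assembly factors and for 10.4% of all genes in either direction, so the count is near the background. The log2 difference was 0.16 (SE 0.08, 95% interval -0.03 to 0.34, adjusted p = 0.981), and the exact permutation test gave its smallest value, p = 0.1. After median scaling of the arrays the Ndufaf3 values overlapped as well.

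Ndufaf4 gave 1710.6, 1982.6 and 1865.1 in Harlequin and 1980.1, 2066.5 and 1695.4 in controls. The groups overlapped over most of their range, with a log2 difference of -0.04 (95% interval -0.29 to 0.21). Timmdc1 gave 452.6, 724.0 and 424.0 in Harlequin and 618.4, 609.0 and 369.7 in controls. The highest array, Harlequin replicate 2, had 1.96 times the signal of the lowest, control replicate 3, while the means were 533.5 ± 166 in Harlequin and 532.4 ± 141 in controls (SD, n = 3 each). Its log2 difference was -0.001 (SE 0.26), and quantile normalization, median scaling and array weights turned it to the other side of 0.

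Ndufaf2, Foxred1 and Nubpl act on late stages or cofactors, and all 3 differences were slightly below 0, with a median of -0.04. Ndufaf2, a relative of the subunit Ndufa12 that holds a late intermediate, gave 425.3, 500 and 415.6 in Harlequin and 398.9, 527.0 and 512.0 in controls. Control replicate 1 was the lowest array and control replicate 2 the highest, and the log2 difference was -0.09 (95% interval -0.44 to 0.25). It was -0.21 without control replicate 1 and -0.02 without control replicate 2. Foxred1, a flavin-dependent oxidoreductase homologue, gave 371.7, 371.1 and 309.5 in Harlequin and 346.7, 346.9 and 383.7 in controls. Its log2 difference was -0.04 (95% interval -0.35 to 0.28), with Harlequin replicate 3 lowest and control replicate 3 highest. Nubpl, which delivers iron-sulphur clusters to complex I, gave 1202.8, 941.7 and 899.7 in Harlequin and 964.3, 1143.1 and 960.8 in controls. Here the log2 difference was -0.02 (95% interval -0.34 to 0.30), and Harlequin replicates hold both the highest and the lowest value.

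The precision differed between members. The within-genotype SD on the log2 scale was 0.06 for Ndufaf3, the 4.12th percentile of all genes tested, and 0.41 for Timmdc1, the 90.4th percentile. Tmem126b followed at 0.29 (77.3rd percentile), and the other 7 lay between 0.12 and 0.19, from the 24.9th to the 54.9th percentile. A difference of the size seen for Ndufaf3 is therefore well inside the interval of Timmdc1. With 3 arrays per genotype, precision is limited throughout.

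The members varied between mice of 1 genotype. Each value was set against its gene's mean over the 6 arrays. Averaged over the 10 genes this deviation was 0.02, 0.08 and -0.11 on Harlequin replicates 1, 2 and 3, and 0.03, 0.13 and -0.15 on control replicates 1, 2 and 3. The lowest arrays, replicate 3 of each genotype, had 2 of 10 genes above their mean, while Harlequin replicate 2 had 8 and control replicate 2 had 7. The spread among mice of 1 genotype thus exceeded the difference between the genotypes. Over all genes tested the median deviation lay between -0.002 and 0.016 on the 6 arrays. Gapdh probe sets at the 3′ and 5′ ends, whose ratio tracks RNA integrity, had a ratio of 0.729 on Harlequin replicate 3 and 0.846 on control replicate 3, the lowest and the highest of the 6. Its part in the pattern was not tested.

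**Figure D3:**
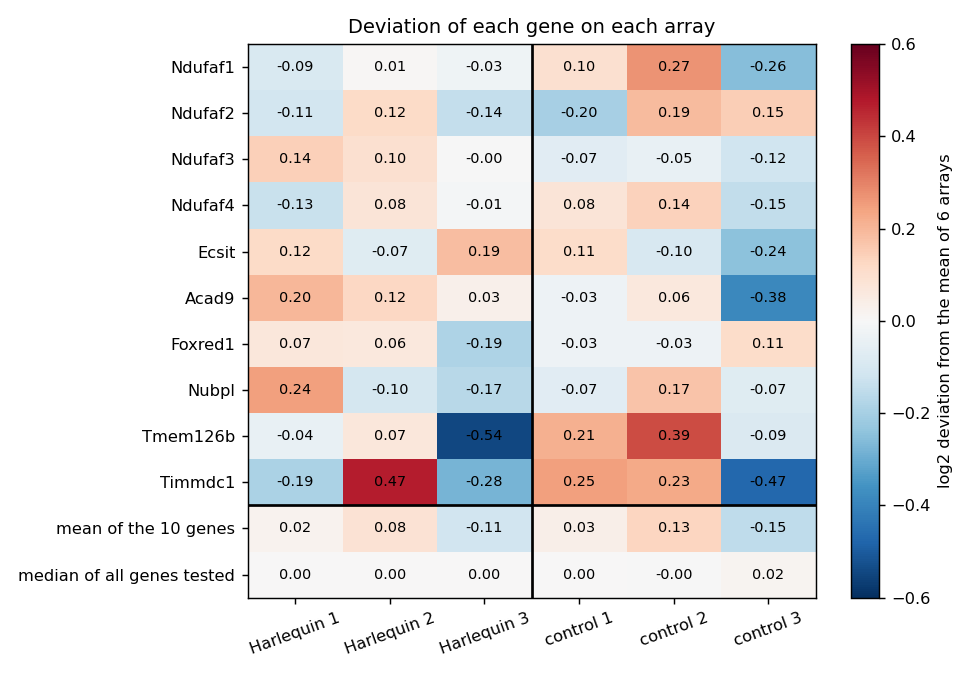
Log2 deviation of each assembly factor from its mean over 6 arrays (colour and number), with Harlequin arrays left of the line and control arrays right of it, and the mean over the 10 genes and the median over all genes tested below. Replicate 3 of both genotypes is mostly blue, with means of -0.11 in Harlequin and -0.15 in control.

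Mean deviations of other mitochondrial lists are given for comparison, and the difference between lists was not tested. For 12 general mitochondrial genes, Harlequin mice had deviations of 0.03, 0.002 and -0.002, and control mice had -0.006, -0.02 and -0.01. For 27 accessory subunits of complex I, Harlequin mice had 0.05, -0.03 and -0.07, and control mice had 0.01, 0.04 and 0.001. For 9 other assembly factors, Harlequin mice had 0.08, -0.02 and -0.04, and control mice had -0.002, 0.07 and -0.08. For 6 core subunits, Harlequin mice had 0.10, 0.05 and -0.04, and control mice had 0.001, -0.01 and -0.10. Replicate 3 was thus the lowest array of its genotype for these 27, 9 and 6 genes too, as for the 10 described here. For the 12 general mitochondrial genes it was the lowest in Harlequin only.

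Probe sets of 1 gene differed in the sign of their difference. Acad9 had 3 and Ndufaf4 had 2, and tested on their own 0 of the 13 probe sets of the members had an unadjusted p under 0.05, against 5.04% of all 45037 non-control probe sets. The second brightest probe set of Acad9 gave 477.4, 581.1 and 478.5 in Harlequin and 552.7, 593.6 and 505.7 in controls, a log2 difference of -0.10 (unadjusted p = 0.444), of opposite sign to that of the brightest. Within each array, the brightest minus the second was 1.19, 0.84 and 1.02 on the log2 scale in Harlequin and 0.75, 0.75 and 0.52 in controls. These do not overlap, and the difference between genotypes was 0.34 (exact p = 0.1, or 0.3 adjusted over the 3 such comparisons). The third Acad9 probe set was under the filter signal on average (56.3 ± 12.1 in Harlequin and 61.1 ± 3.14 in controls). The mean over its probe sets put Acad9 at a log2 difference of 0.009. The probe sets of Ndufaf4 differed by -0.04 and 0.04 between genotypes.

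**Figure D4:**
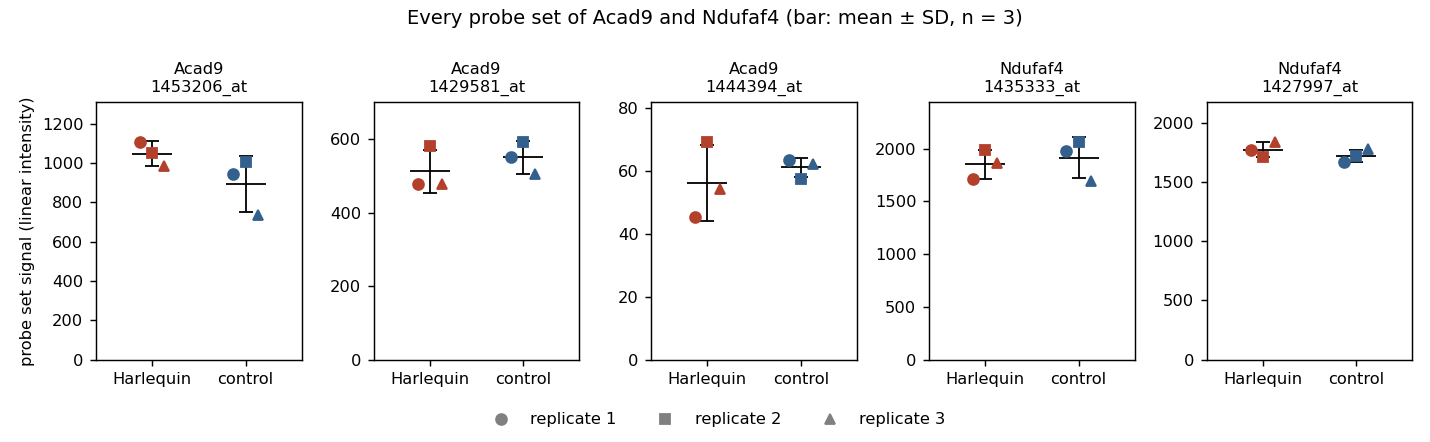
Signal (linear intensity) of the 3 probe sets of Acad9 and the 2 of Ndufaf4 on every array, Harlequin left and control right, with mean ± SD (n = 3). Acad9 is higher on average in Harlequin at its brightest probe set (left panel) and lower at the other 2, and no probe set separates the genotypes.

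The 10 assembly factors were also set against each other within each array, where a scaling factor cancels. Of 45 pairs, 6 did not overlap between the genotypes, which is 13.3%, against 9.93% of all pairs of tested genes. The count is close to the background, and pairs that share a gene are not independent. The greatest difference was that of Acad9 minus Tmem126b, at 1.44, 1.26 and 1.78 on the log2 scale in Harlequin and 0.96, 0.87 and 0.90 in controls (difference 0.58, exact p = 0.1, adjusted over the 45 pairs 0.643). With the second Acad9 probe set the difference was 0.24 and the groups overlapped. The other 5 pairs also held Acad9, Tmem126b or Ndufaf3: Ndufaf3 with Tmem126b, Ndufaf3 with Foxred1, Ndufaf1 with Acad9, Ndufaf1 with Tmem126b, and Ndufaf4 with Acad9. Ndufaf1 minus Acad9 differed by -0.31 and Ndufaf4 minus Acad9 by -0.28. With the second Acad9 probe set both pairs overlapped and turned in sign, with Acad9 minus Ndufaf1 at -0.03 and Acad9 minus Ndufaf4 at -0.06.

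Genes of related sequence, to which probes could in principle also bind, were not called either. Tmem126a, the relative of Tmem126b, differed by -0.009, Acadvl, the very long chain acyl-CoA dehydrogenase related to Acad9, by 0.07, and Ndufa12, the subunit related to Ndufaf2, by -0.18. The other probe sets of Ndufa12 differed in sign, at -0.38, 0.13 and, under the filter signal, 0.11. Nubp1 and Nubp2, iron-sulphur cluster proteins of the cytosol related to Nubpl, differed by -0.15 and -0.23. Neither overlapped between the genotypes at its brightest probe set, with adjusted p of 0.982 for Nubp1 and 0.981 for Nubp2. The same held for 10.4% of all genes in either direction. There Nubp2 gave 823.7, 784.9 and 746.5 in Harlequin and 833.7, 927.5 and 1015.0 in controls. Their other probe sets overlapped and had the opposite sign, at 0.02 and 0.08 for Nubp1 and 0.13 for Nubp2.

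The rest of the complex I pathway gave the same count of calls. Of 10 further assembly factors 9 were tested, 0 were called, 5 were above and 4 below 0, and their median was 0.0005. Tmem242 gave 1071.4, 940.0 and 1101.8 in Harlequin and 1198.4, 1113.8 and 1228.9 in controls (log2 difference -0.19), and Dmac2, which joins the distal membrane arm, differed by 0.22. Neither overlapped between the genotypes at its brightest probe set, which held for 10.4% of all genes in either direction, and both had an adjusted p of 0.981. The second brightest probe sets overlapped, at -0.19 for Tmem242 and, under the filter signal, 0.23 for Dmac2. Ndufaf6 differed by 0.18.

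Of the 7 listed nuclear core subunits 6 were tested, with 0 called, 4 above and 2 below 0. At the brightest probe set 4 of 6 did not overlap between the genotypes (3 higher and 1 lower in Harlequin), against 10.4% of all genes. Ndufv1, which binds the flavin that takes electrons from NADH, gave 5697.7, 5377.2 and 4784.7 in Harlequin and 4698.2, 3869.9 and 4437.8 in controls. Its log2 difference of 0.29 (SE 0.10) had an unadjusted p of 0.0222 and an adjusted p of 0.981. Its other probe sets gave 0.14, without overlap, and 0.12, with overlap. The iron-sulphur subunit Ndufs7 differed by 0.21, at an unadjusted p of 0.0383 and an adjusted p of 0.981. Its second probe set gave 0.15, with overlap. Ndufs1 differed by 0.11, and Ndufv2, the 1 that was lower in Harlequin without overlap, by -0.11. The other probe sets of Ndufv2 both gave -0.12, with overlap. Of 29 listed accessory subunits 27 were tested, with 0 called, 10 above and 17 below 0 and a median of -0.04. Assembly factors of complexes III, IV and V had 0 of 17 called and a median of -0.006, and general mitochondrial genes had 0 of 12 called and a median of 0.01.

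The arrays had been scaled to the same trimmed mean of 500, and median signals were 109.6 to 113.3 in Harlequin and 107.9 to 119.7 in controls. Of the mature sensory neuron markers 7 of 9 were tested, with 5 above and 2 below 0 and a median of 0.02. Among them Omp averaged 17458 ± 1475 in Harlequin and 16887 ± 479 in control (SD, n = 3 each). Cngb1, a channel subunit, gave 11.1, 81.8 and 49.9 in Harlequin and 108.4, 114.3 and 110.7 in control, without overlap (log2 difference -1.19, unadjusted p = 0.024, adjusted p = 0.981). It was dim, with a Harlequin mean of 47.6 under the filter signal of 61.1, and 10.4% of all genes did not overlap. The other tested neuron markers differed by -0.004 to 0.04. Of the sustentacular cell markers 6 of 6 were tested, with 2 above and 4 below 0 and a median of -0.03. Among them Cyp2g1, 1 of the 2 above 0, averaged 17655 ± 213 in Harlequin and 17575 ± 857 in control. The greatest difference in size was that of Ermn, at -0.23 (limma adjusted p = 0.981). Of the skeletal muscle markers 4 of 6 were under the filter. Granulocyte markers were above 0 in 8 of 8 genes (median 0.80), and Chil3 rose among them (2.20, adjusted p = 0.0315). That call was lost without the intensity trend (adjusted p = 0.201) and on leaving out any 1 array except control replicate 2, with a log2 fold change of 1.97 to 2.45 over the 6 omissions. Harlequin mice had mean deviations of 0.73, 0.60 and -0.10 for these genes, and control mice had -0.28, -1.30 and 0.35. Fibroblast markers were below 0 in 7 of 7 (median -0.45), with -0.58, 0.47 and -0.62 in Harlequin mice and 0.60, 0.38 and -0.25 in control mice. Erythroid markers were above 0 in 2 of 2 (median 1.47) and adipocyte markers in 4 of 4 (median 0.79), with 0 called. The part of any of these in the values of the assembly factors was not tested.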

How the data were processed

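Total RNA (3 µg per mouse, per the labels' protocols) of 6 mice was labelled and hybridised to 1 array each. The deposited values are linear intensities, 45101 probe sets per array, and from the values themselves the mean without the lowest and highest 2% is 500 on each array. The software that made them is not given in the sources used here.

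Groups and replicate numbers come from the sample titles. The 64 control probe sets were left out. A gene was represented by its probe set with the highest mean log2(value + 16), among 34945 probe sets that name 1 gene, and kept above the 40th percentile of all probe sets, a signal of 61.1, which left 13219 of 18193 genes. Harlequin and control were compared with limma 3.58.1 in R 4.3.3 (lmFit, eBayes with an intensity trend), two-sided, Benjamini-Hochberg adjusted over all genes, called under 0.05, with 95% intervals. Differences are Harlequin minus control on the log2(value + 16) scale, which understates changes of dim genes. Exact permutation tests are two-sided. The limma step was tested on simulated data, with changes far larger than the differences of the assembly factors. How often it calls differences of their size was not tested. Summaries used Python 3.11.15, pandas 2.3.3 and matplotlib 3.10.9.

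All members, every probe set, Aifm1, Chchd4, the related genes and up to 3 genes with the smallest p of each other list were to be named, and not all are reported. Nubp1 and Nubp2 are among the related genes. Omp and Cyp2g1 are tissue markers. The members and lists were chosen with earlier results of these data known. Comparisons between probe sets of 1 gene and between pairs of members, and the 7 promoter motifs, were added after seeing the data.

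Other settings tried were a pseudocount of 1 or 64, a filter at the 60th percentile or none, quantile normalization, median scaling, no intensity trend, robust moderation, array weights, the mean over probe sets, dropping _s_at and _x_at probe sets, testing each probe set by itself, a replicate block, and leave-one-out over the arrays.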

Additional observations from a re-analysis of the deposited data

How the results depend on the processing

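The count of 0 assembly factors called held under all 19 alternatives (limma). At an unadjusted p under 0.05 it was 0 of 10 except with the replicate block, where Tmem126b had one. The differences of Ndufaf2, Ndufaf3, Ecsit and Tmem126b kept their sign under all 19, with 1 array left out from -0.21 to -0.02 for Ndufaf2, 0.12 to 0.20 for Ndufaf3, 0.07 to 0.25 for Ecsit and -0.47 to -0.16 for Tmem126b. Acad9 kept its sign at its brightest probe set (0.10 to 0.33), was 0.009 as the mean over probe sets, and was below 0 at its other 2 probe sets tested by themselves (-0.10 and -0.11). With 1 array left out Ndufaf1 ranged from -0.22 to 0.043, Ndufaf4 from -0.13 to 0.013, Foxred1 from -0.078 to 0.048, Nubpl from -0.14 to 0.063 and Timmdc1 from -0.24 to 0.14, and the median of the 10 from -0.09 to 0.05. Median scaling gave 0.012 for Nubpl and 0.028 for Timmdc1, quantile normalization 0.0043 and array weights 0.0093 for Timmdc1. With median scaling the median over all genes tested was 0.0297, beside 5.2e-05 in the main fit. The cause of the changes of sign was not tested.

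Assembly factors without overlap numbered 0 with median scaling and 2 to 3 with 1 array left out, and pairs without overlap 6 to 15, where fewer arrays are left to overlap. Genes called over the whole table numbered 0 without an intensity trend and 0 with the replicate block (643 and 541 at an unadjusted p under 0.05), and 0 to 3 with 1 array left out. Aifm1 stayed at a log2 fold change of -2.20 without the trend (adjusted p = 0.0887) and with the block (0.0605), and ranged from -2.40 to -2.08 with 1 array left out. Leaving out any 1 control array ended its call (lowest adjusted p 0.0616, highest 0.097). The block also ended the call of Chil3 (0.0605). Same-numbered arrays of the genotypes did not deviate together (correlations across genes of -0.237, -0.0298 and 0.0582), so the numbers were not taken as pairs.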
